A study of Mus musculus with 2 samples.

Results

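The genes described here are 10 cytokine receptor chains of myeloid and lymphoid cells: Csf2rb, Csf2rb2, Il3ra, Csf2ra, Csf3r, Csf1r, Flt3, Il6st, Il2rg and Il7r. They were taken by name from a list, without a cut on level. Earlier results of these data were known when the list was chosen. All 10 were found among the 43346 Ensembl genes of each gene table, with 28 transcripts between them in the transcript tables. The RNA came from G1E-ER4, a mouse erythroid line which the labels give as male and of strain C57BL/6J. G1E cells lack GATA1 function, and the ER4 derivative carries a restored GATA1 that is active only with estradiol. Both libraries are total RNA of cells kept in 10 nM 17β-estradiol for 24 h to induce erythroid differentiation, and the labels call them biological replicates 1 and 2. There is 1 group and no untreated or other control, so the values are levels in the induced cells, with the spread between 2 cultures. No change with estradiol was measured and no test between conditions exists.

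Cytokine receptors of the class I family have no kinase of their own. In many of them, though not all, a ligand-binding chain joins a signalling chain that several receptors share. JAK kinases bound to the shared chain then phosphorylate STAT factors. Csf2rb is the shared chain for IL-3, IL-5 and GM-CSF, and in mice its close copy Csf2rb2 serves the IL-3 receptor alone. Il2rg is the common gamma chain of the IL-2, IL-4, IL-7, IL-9, IL-15 and IL-21 receptors, and Il6st (gp130) is shared by the IL-6 family. Csf1r and Flt3 are different: each is a receptor tyrosine kinase that works as a pair of identical chains, as Kit does. In blood formation some of these genes, among them Csf3r, Csf1r and Il7r, mark myeloid or lymphoid branches. Erythroid cells depend on Kit and then on Epor.

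Many class I chains carry a short motif, tryptophan-serine-any-tryptophan-serine (WSXWS). It was searched as these exact residues in the translated coding sequence of 1 transcript per gene (GENCODE M21, mm10), and 6 of the 10 genes held it once. The coding stretch of each is shown 5′ to 3′ because it is a sequence feature that these 6 chains share, with the motif in capitals and 9 bases on either side.

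Csf2rb (chr15:78345507-78345539, plus strand, exon 10): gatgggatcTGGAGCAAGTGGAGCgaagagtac
Csf2rb2 (chr15:78287907-78287939, minus strand, exon 10): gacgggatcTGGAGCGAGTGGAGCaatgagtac
Il6st (chr13:112490588-112490620, plus strand, exon 8): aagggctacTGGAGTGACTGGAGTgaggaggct
Il2rg (chrX:101266206-101266238, minus strand, exon 5): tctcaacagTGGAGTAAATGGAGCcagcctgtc
Il7r (chr15:9511142-9511174, minus strand, exon 5): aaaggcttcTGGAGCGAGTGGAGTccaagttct
Csf3r (chr4:126034521-126034553, plus strand, exon 6): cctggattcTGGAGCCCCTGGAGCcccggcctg

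The class I chains Il3ra and Csf2ra had no exact match, and neither did the kinase genes Csf1r and Flt3, so the search did not separate the families. A missing match says only that these residues are not in the transcript searched. The motif was present in genes at both ends of the range of levels, from Csf2rb, the highest member, to Il7r, which had no read.

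Where 2 values are given together, the first is replicate 1. Depth was 50277914 and 47478888 expected counts, with 28.6% and 29.3% on nuclear protein-coding genes. The 10 receptor genes together took 8010 counts in replicate 1 and 7951 in replicate 2. TPM, the transcript share of a library after division by effective length, can be compared between genes. Nuclear protein-coding genes made up only 22.7% and 22.9% of all TPM, and the remainder lay on other entries of the tables. All 10 erythroid markers reached a TPM of 1 in both libraries. Of the 15 granulocyte and macrophage markers, 10 T and NK cell markers and 9 B cell markers, none did.

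Expression was concentrated in the beta chains Csf2rb and Csf2rb2. Of the 10 members, 4 reached a TPM of 1 in both libraries, against 8620 of 21461 nuclear protein-coding genes (40.2%), so the share of members above this level was close to that of protein-coding genes in general. Their median TPM was 0.595, against 0.025 over all nuclear protein-coding genes, and this difference was not tested. The 40.2% is also the background for the counts of list genes at this level given below. Csf2rb and Csf2rb2 held 86.2% of the members' summed TPM in replicate 1 and 88.05% in replicate 2 (87.1% ± 1.32, SD, n = 2). The members' order by mean TPM was Csf2rb, Csf2rb2, Il2rg, Il6st, Il3ra, Csf2ra, Csf3r and Flt3, with Csf1r and Il7r at 0. From Csf2rb to Csf3r, neighbours in this order did not overlap between their library values, although Csf2ra and Csf3r were only 0.01 TPM apart at their closest. Csf3r, Flt3, Csf1r and Il7r could not be placed in an order.

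**Figure D1:**
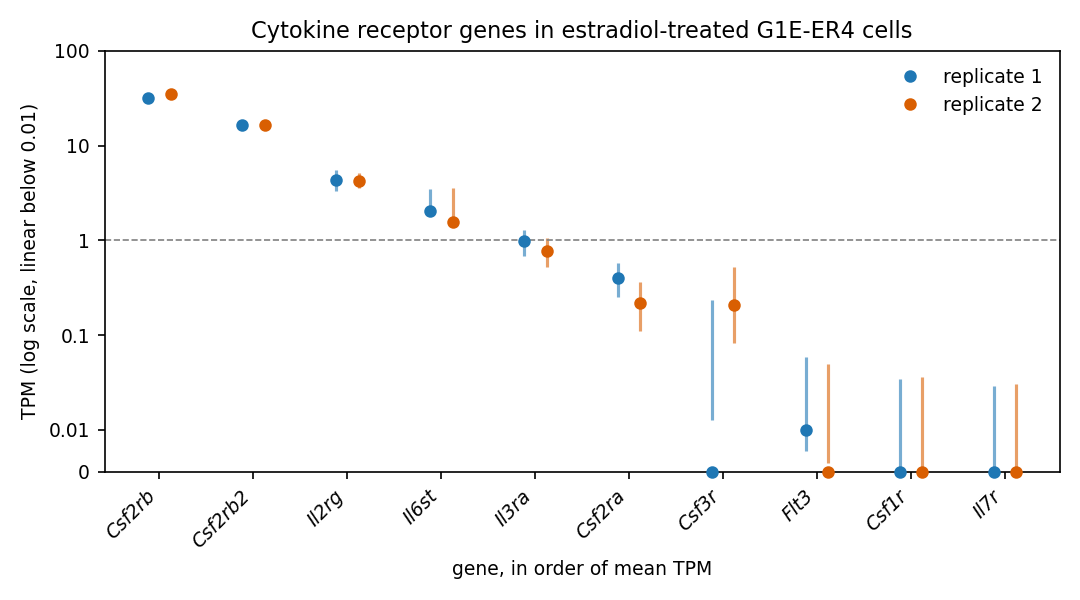
TPM of the 10 receptor genes (y axis, log scale, linear below 0.01) in replicate 1 (blue) and replicate 2 (orange), in order of mean TPM; points are the deposited TPM, vertical lines the deposited interval of each library, and the dashed line a TPM of 1. Csf2rb and Csf2rb2 lie above 10 in both libraries, Il2rg and Il6st lie above 1, and Csf1r and Il7r are at 0.

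Csf2rb (ENSMUSG00000071713.4, chromosome 15, 78325752 to 78353847, plus strand, mm10) stood at TPM values of 32.09 and 34.76, from 4915.57 and 5057.43 expected counts. The mean was 33.4 ± 1.89 (SD, n = 2), above 94.1% of nuclear protein-coding genes. Csf2rb stood at a similar level in both cultures, with a log2 ratio (replicate 2 over replicate 1, pseudocount 0.1) of 0.11. Its deposited intervals, 30.5 to 32.2 in replicate 1 and 32.9 to 34.8 in replicate 2, nevertheless did not overlap. Csf2rb2 (ENSMUSG00000071714.5, chromosome 15, 78282507 to 78305721, minus strand) had 16.33 and 16.45, from 2419.43 and 2314.57 counts, a mean of 16.4 ± 0.0849 (SD, n = 2) that exceeded 86.9% of these genes. The libraries were close for both genes, and neither gene's values reached those of the other. Csf2rb was 1.97 and 2.11 times Csf2rb2 (2.04 ± 0.105, SD, n = 2), and held 67.1% ± 1.13 of the pair's TPM.

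The 2 genes lie next to each other on opposite strands and are close copies, so the split of reads between them is an estimate. Their coding sequences, 2688 and 2634 bases without the stop codon, were 95.2% identical over 2628 aligned bases, and the translated proteins 92.01% identical over 876 aligned residues. In 44 windows of 60 coding bases the identity ranged from 80% to 100% with a median of 96.7%, and 9 windows were identical throughout. The longest identical coding run was 242 bases in exon 14, the last exon of both transcripts, where a read cannot be assigned to either gene. It is shown once because the letters are the same in both.

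Csf2rb (chr15:78348577-78348818, plus strand) and Csf2rb2 (chr15:78284630-78284871, minus strand): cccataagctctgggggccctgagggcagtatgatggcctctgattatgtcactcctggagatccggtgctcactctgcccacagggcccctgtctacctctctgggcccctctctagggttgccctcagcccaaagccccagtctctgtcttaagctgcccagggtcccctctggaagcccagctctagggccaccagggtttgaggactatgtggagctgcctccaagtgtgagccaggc

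The most different gap-free stretch of 60 coding bases within 1 exon differed at 13 positions, in exon 4 of both genes. It shows the kind of sequence by which reads can be told apart, with the differing bases in capitals.

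Csf2rb (chr15:78338893-78338952, plus strand): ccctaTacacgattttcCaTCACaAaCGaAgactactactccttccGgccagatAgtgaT
Csf2rb2 (chr15:78294379-78294438, minus strand): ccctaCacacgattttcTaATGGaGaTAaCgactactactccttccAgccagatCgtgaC

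**Figure D2:**
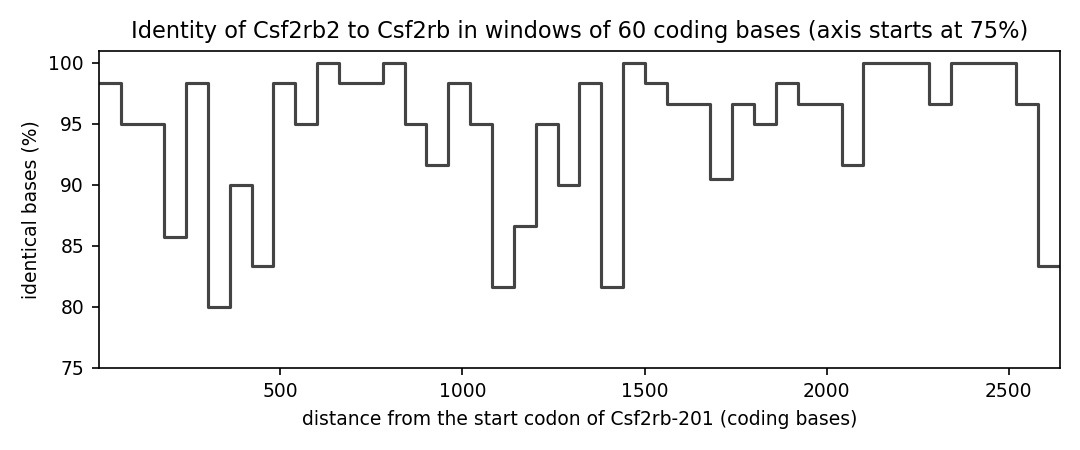
Share of identical bases (y axis, percent, starting at 75%) in 44 successive windows of 60 coding bases along Csf2rb, aligned to Csf2rb2; the x axis is the distance from the start codon of Csf2rb-201 in coding bases. Identity is lowest, at 80%, in a window near the start and stays at or above 90% from base 1441 until the last window.

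Most of the sequence separates the genes at usual read lengths. Of the 50-base windows of the whole Csf2rb transcript, 18.9% also occur in Csf2rb2, and 11.04% of 75-base windows and 7.16% of 100-base windows do. The read length is not given in the sources used here. For both genes, the deposited posterior standard deviation of the count was 13.3 in both libraries, below the 70.1 and 49.2 that are the square roots of their counts in replicate 1. It was equal for the 2 genes within a library to the digits deposited. The deposited intervals of TPM were 30.5 to 32.2 and 32.9 to 34.8 for Csf2rb and 15.3 to 16.6 and 15.3 to 16.7 for Csf2rb2, so the intervals of the 2 genes did not overlap in any pairing of libraries. The Csf2rb2 model in the tables is 4612 nt long against 4740 nt in M21, and the windows were counted on the M21 sequence.

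The chains that bind the ligands of the beta chain receptors were scarce. Il3ra, the IL-3 binding chain (ENSMUSG00000068758.7, chromosome 14, 14346275 to 14356011, plus strand), had a TPM of 0.98 from 41 counts in replicate 1 and 0.78 from 31 counts in replicate 2 (0.880 ± 0.141, SD, n = 2). Csf2ra, which binds GM-CSF (ENSMUSG00000059326.6, chromosome 19, 61223957 to 61228429, minus strand), had 0.40 from 23 counts and 0.22 from 12 counts (0.310 ± 0.127). Both genes were higher in replicate 1, but the deposited intervals of the libraries overlapped, 0.686 to 1.27 and 0.517 to 1.05 for Il3ra and 0.253 to 0.577 and 0.112 to 0.360 for Csf2ra. Within each library the interval of Il3ra lay above that of Csf2ra, and only Il3ra in replicate 2 overlapped Csf2ra in replicate 1. Il5ra, the third chain of this family and not one of the 10 genes, had 0.86 and 1.39. It was below Il3ra in replicate 1 and above it in replicate 2, where its interval, 1.06 to 1.70, did not overlap that of Il3ra.

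On TPM, Csf2rb was 32.7 and 44.6 times Il3ra (38.7 ± 8.36, SD, n = 2). The summed TPM of both beta chains was 48.4 and 51.2, and that of Il3ra, Csf2ra and Il5ra was 2.24 and 2.39, a ratio of 21.6 in replicate 1 and 21.4 in replicate 2. These are RNA levels, and receptor protein was not measured. The sum of the beta chains includes Csf2rb2, which serves the IL-3 receptor alone. The genes for the ligands, Il3 and Csf2, had no read in either library, and Il5 had 0 counts and 1 count.

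**Figure D3:**
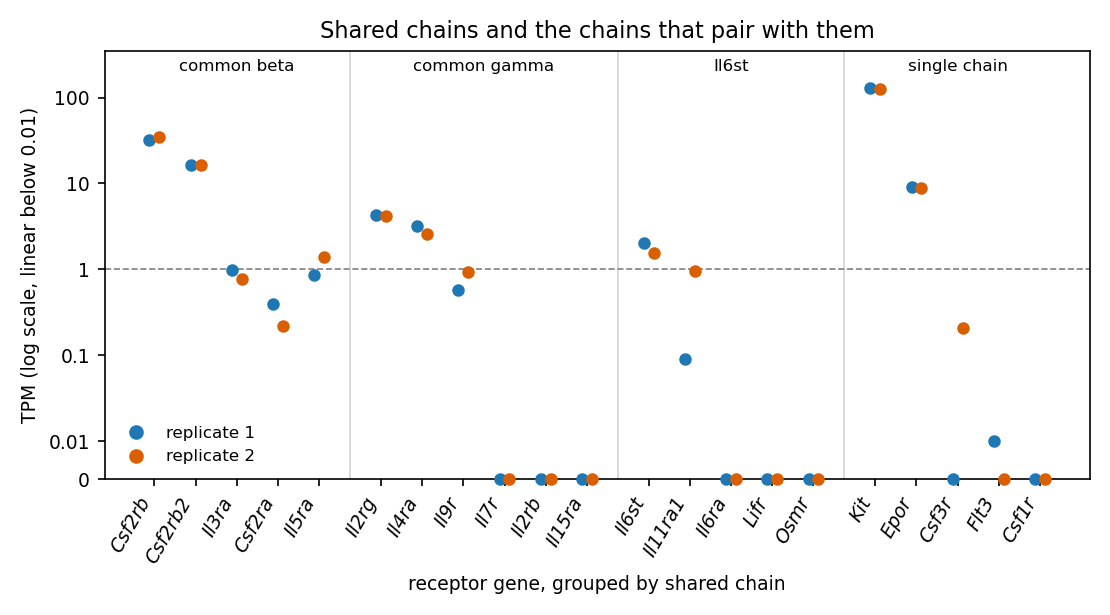
TPM (y axis, log scale, linear below 0.01) of receptor genes in replicate 1 (blue) and replicate 2 (orange), grouped on the x axis by the chain they share, with single-chain receptors at the right and a dashed line at a TPM of 1. Values are whole-gene TPM, non-coding transcripts included. On this measure the shared chain (Csf2rb, Il2rg or Il6st) is the highest in each of the first 3 groups, and Csf2rb2 follows Csf2rb. Among single-chain receptors Kit and Epor stand above Csf3r, Flt3 and Csf1r.

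Il2rg, the common gamma chain (ENSMUSG00000031304.14, X chromosome, 101264378 to 101268255, minus strand), stood at TPM values of 4.33 and 4.19, with a mean of 4.26 ± 0.0990 (SD, n = 2) above 69.1% of nuclear protein-coding genes. The close TPM values covered unlike transcripts. Replicate 1 had 155 counts and an effective length of 1085 nt, and replicate 2 had 189 counts and 1438 nt. The full-length coding transcript Il2rg-201 held 44.5% of the gene's TPM in replicate 1 but 85.7% in replicate 2 (65.1% ± 29.1, SD, n = 2). In replicate 1 the remainder was Il2rg-202, a processed transcript without a coding sequence, at 29.4%, the retained-intron transcript Il2rg-204 at 19.2% and the short coding Il2rg-203 at 6.92%. In replicate 2 Il2rg-202 had no count and Il2rg-204 held 6.02%.

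Summed over coding transcripts only, Il2rg reached TPM values of 2.23 and 3.94. The deposited intervals of Il2rg-201 did not overlap between the libraries, at 1.33 to 2.29 and 2.86 to 3.95, nor did those of Il2rg-204, at 0.481 to 1.22 and 0.0809 to 0.437. Those of Il2rg-202, at 0.221 to 2.44 and up to 0.582, did. Il2rg-202 is 558 nt long, and its share in replicate 1 rests on 18.4 counts. Gm20489, annotated as protein-coding on the same strand, overlaps Il2rg and is listed at 0 in both libraries, so reads of the shared stretch were all counted for Il2rg.

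The chains that pair with Il2rg were at unequal levels. Il7r, the IL-7 binding chain (ENSMUSG00000003882.4, chromosome 15, 9505788 to 9530176, minus strand), had no read in either library. With 0 counts, up to 3 could have been missed, and for Il7r these would be TPM values of 0.0294 and 0.0310. Against this floor Il2rg was at least 147 times higher in replicate 1 and at least 135 times higher in replicate 2. Of the other partners, Il4ra, the IL-4 binding chain, had 3.22 and 2.56, and Il2rg over Il4ra was 1.34 and 1.64 on whole-gene TPM. Summed over coding transcripts only, Il2rg (2.23 and 3.94) lay below the whole-gene value of Il4ra in replicate 1 and above it in replicate 2. Il9r had 0.57 and 0.94 from 55 and 63 counts. Il2ra, Il2rb, Il15ra and Il21r had no read, and Crlf2, which joins Il7r in the TSLP receptor, had 4 and 15 counts. The deposited intervals of Il15ra still reached above a TPM of 1, at 0.375 to 1.21 and 0.403 to 1.29. Il4ra was the only 1 of the 14 partner chains measured to reach a TPM of 1 in both libraries, and 9 of the 14 had no read.

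**Figure D4:**
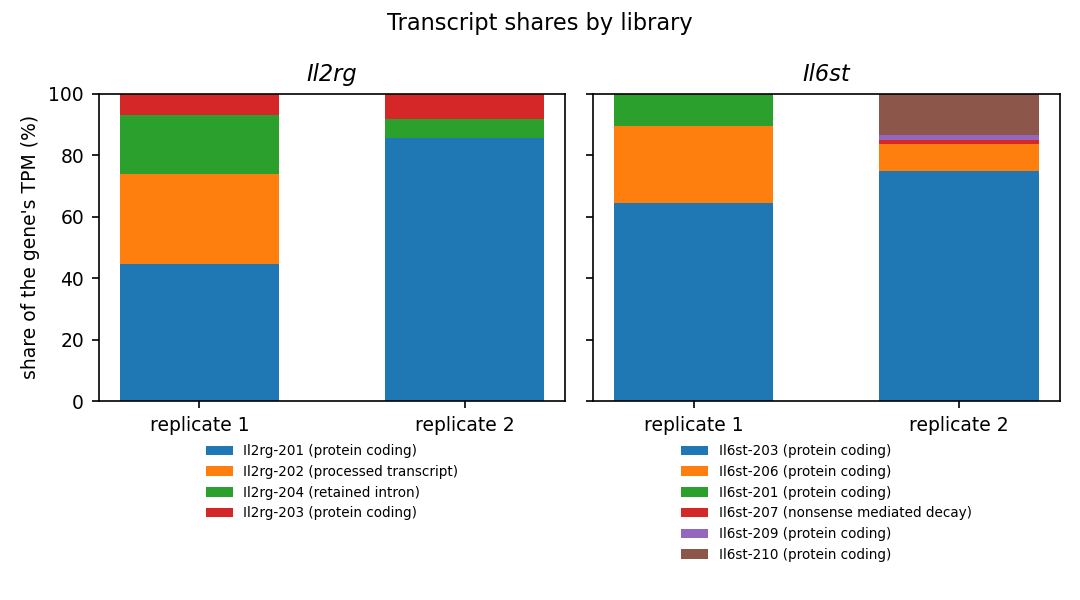
Share of the gene's TPM held by each transcript (y axis, percent, stacked to 100%) of Il2rg (left) and Il6st (right), with 1 bar per library. Il2rg-201 grows from 44.5% in replicate 1 to 85.7% in replicate 2, while Il6st-203 leads in both bars.

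Il6st, the gp130 chain (ENSMUSG00000021756.8, chromosome 13, 112464070 to 112510086, plus strand), had a TPM of 2.04 from 455 counts in replicate 1 and 1.55 from 343 counts in replicate 2 (1.80 ± 0.346, SD, n = 2). Replicate 1 was the higher, with a log2 ratio of -0.38. Both values lay below the deposited interval of the same library, 2.045 to 3.52 and 1.67 to 3.54. The posterior mean TPM, which gives some weight to transcripts without assigned reads, was 2.70 and 2.49 and nearer in the 2 libraries. The interval of Il6st overlapped that of Il2rg in replicate 1 and ended just below it in replicate 2, at 3.544 against 3.550, while the TPM values did not overlap.

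The 8678 nt transcript Il6st-203 had the largest share, with 64.4% of TPM in replicate 1 and 74.8% in replicate 2 (69.6% ± 7.30, SD, n = 2). On posterior mean TPM its share was still the largest but lower, at 47.1% and 43.3%. Il6st-206, whose annotated coding sequence has 492 bases against 2751 in Il6st-203, held 24.9% and 8.82% of TPM. Its deposited TPM intervals were 0.352 to 0.649 and 0.0521 to 0.224 and did not overlap. In all, 6 of the 10 Il6st transcripts had counts in at least 1 library. The binding chains that use Il6st were low or without reads, and unequal between libraries for Il11ra1. Il6ra, Lifr, Osmr, Cntfr and Il27ra had no read. Il11ra1 had a TPM of 0.09 from 5 counts in replicate 1 and 0.97 from 30 counts in replicate 2. In replicate 2 its deposited interval, 0.834 to 2.10, overlapped that of Il6st, 1.67 to 3.54. Against 3 counts of Il6ra, Il6st was at least 72.3 times higher in replicate 1 and at least 52.2 times higher in replicate 2.

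The receptors that define granulocyte, macrophage and early lymphoid cells were at or near 0. Csf3r, the G-CSF receptor (ENSMUSG00000028859.10, chromosome 4, 126024550 to 126044440, plus strand), had 0 counts in replicate 1 and 4 in replicate 2, a TPM of 0 and 0.21. All 4 counts fell on processed transcripts, 3 on Csf3r-204 and 1 on Csf3r-203, and both coding transcripts were at 0. Csf3r was the only member 2-fold or more apart between the libraries on TPM with a pseudocount of 0.1 (log2 ratio 1.63), against 3.8% of nuclear protein-coding genes. Of the 21461 genes behind this share, 10087 had no read in either library and could not come out apart. The Csf3r difference rests on 4 counts and was below 2-fold on posterior mean TPM.

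Csf1r, the M-CSF receptor (ENSMUSG00000024621.11, chromosome 18, 61100598 to 61132149, plus strand), had no read in either library, although Hmgxb3, which overlaps it on the other strand, had a TPM of 3.75 and 4.83. For Csf1r 3 counts would be a TPM of 0.0218 and 0.0230. Flt3, the receptor of FLT3 ligand (ENSMUSG00000042817.13, chromosome 5, 147330741 to 147400489, minus strand), had 1 count in replicate 1 and none in replicate 2. Kit, the related kinase that binds stem cell factor, had a TPM of 127.5 and 126.6. In replicate 1 Kit was 14874 times Flt3, with a counting interval (exact Poisson, 95%) of 2670 to 587501. In replicate 2 Kit was at least 5502 times higher than Flt3. Against Csf1r it was at least 5839 and at least 5505 times higher. These floors and intervals cover counting error only.

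Among the other receptors of blood progenitors, 5 of 7 reached a TPM of 1 in both libraries. Tfrc led with 164.2 and 155.6, followed by Kit, and Epor, the erythropoietin receptor, had 8.97 and 8.94. Csf2rb was 3.58 and 3.89 times Epor, and Kit was 3.97 and 3.64 times Csf2rb. Csf2rb thus lay between Kit and Epor in both libraries. Acvr1b, an activin receptor gene, had no read.

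The kinases and STAT factors that work below these receptors were broadly transcribed, with 9 of 10 reaching a TPM of 1 in both libraries. This stands against 40.2% of nuclear protein-coding genes. Their median TPM was 18.7. Jak1, which works with gp130 and the common gamma chain family, had 39.2 and 33.0. Jak2, which binds the beta chain and Epor, had 22.3 and 21.8. Jak3, the partner of the common gamma chain, had 6.78 and 5.64, and Tyk2 2.36 and 2.64. Jak1 was above Jak2 and Jak2 above Jak3 in both libraries.

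Stat5a had 42.0 and 43.4 and Stat5b 23.9 and 21.8. These genes are close copies, so their split is uncertain too. Stat3, the main factor below gp130, had 20.8 and 22.2, Stat6, which acts for IL-4, 15.2 and 16.6, and Stat2 3.21 and 3.91. Stat4 had no read. The highest of these genes, Stat5a, exceeded both beta chains.

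**Figure D5:**
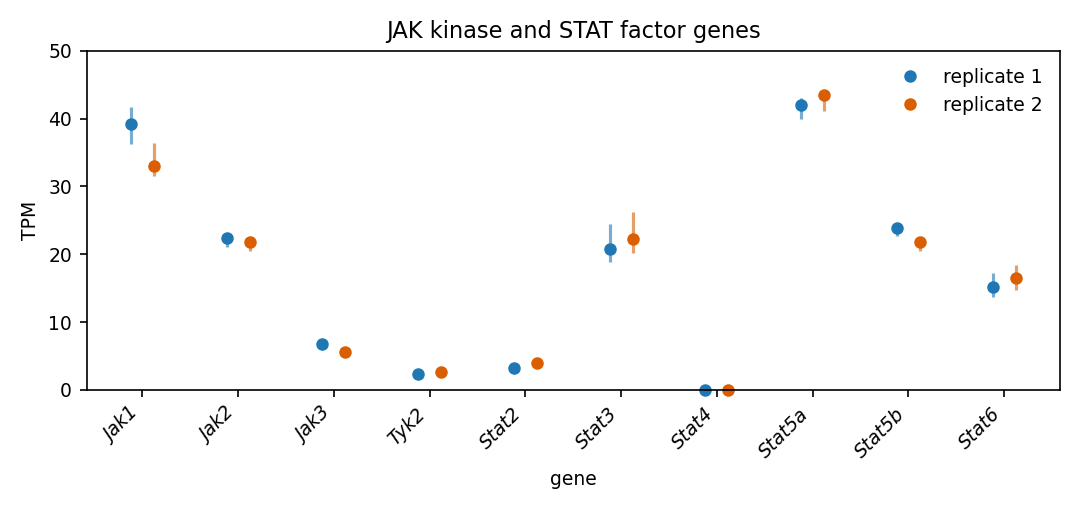
TPM (y axis, linear) of the 4 JAK kinase and 6 STAT factor genes in replicate 1 (blue) and replicate 2 (orange), with the deposited interval of each library as a vertical line. Stat5a and Jak1 are highest, at 33.0 to 43.4, and Stat4 is at 0.

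Of 13 inhibitors of cytokine signalling, 11 reached a TPM of 1 in both libraries. Cish, a SOCS family gene, had 28.3 and 27.7, the ubiquitin ligase gene Cbl 26.1 in both, Socs2 23.9 and 25.8, and the phosphatase gene Ptpn6 23.4 and 21.4. Socs1 had 0.55 and 0.49. Socs3, which binds gp130 and the G-CSF receptor, had 0.15 and 0.51. The others ranged from Socs5 at 2.41 and 1.95 to Pias1 at 12.9 and 15.3. All 8 adaptor genes reached this level, from Grb2 at 67.6 and 62.5 to Gab1 at 3.99 and 3.90.

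Of the 17 ligand genes measured, 13 had no read and 2 reached a TPM of 1 in both libraries. Il4 had 9.49 in replicate 1 and 4.74 in replicate 2, from 147 and 70 counts, and the deposited intervals, 8.03 to 11.1 and 3.84 to 6.09, did not overlap. Osm, an IL-6 family ligand, had 1.19 and 2.01. Il4 was therefore present beside both chains of its receptor, Il4ra and Il2rg, and Osm beside Il6st with no read of Lifr or Osmr. Flt3l, the ligand of Flt3, was not analysed here.

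Of 11 regulators that are known to act on these receptor genes in myeloid and lymphoid cells, 6 reached a TPM of 1 in both libraries. Over all nuclear protein-coding genes the share was 40.2%. Myb had 98.7 and 111.0, Gata2 78.5 and 75.3, Ikzf1 46.0 and 45.1, and Runx1 35.1 and 34.4. Spi1, the PU.1 gene, had 18.7 and 17.9. Cebpa, a driver of Csf3r and of granulocyte fate, Gfi1 and Ebf1 had no read. No relation between these genes and the receptor levels was tested.

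Because RNA was measured from whole cultures, a low level cannot be divided into few cells with the RNA and little RNA in each cell. Markers of other cells stand beside the receptor values as follows. Granulocyte and macrophage markers had summed TPM values of 1.88 and 5.80, with 4 of 15 (Ly6g, S100a8, Fcgr1 and Cd14) at 0 in both. The libraries differed 2-fold or more for 5 of the 15, against 3.8% of 21461 nuclear protein-coding genes, of which 10087 had no read. These 5 were Mpo with 1 and 70 counts, Cd68 with 22 and 53, Elane with 0 and 17, Ly6c2 with 0 and 14 and Ctsg with 0 and 8. All 5 were higher in replicate 2. In contrast, Prtn3 (8 and 5), Lyz2 (10 and 6) and Adgre1 (19 and 18) had more counts in replicate 1. The part of granulocyte or macrophage RNA in the Csf3r counts was not tested. Mast cell and basophil markers summed to 32.3 and 34.03, with 3 of 11 at a TPM of 1 in both, of which Cpa3 had 26.7 and 28.0, and 5 at 0, among them Fcer1a. Megakaryocyte markers summed to 34.4 and 25.7, with 4 of 11 at this level and 4 at 0. T and NK cell markers summed to 0.21 and 0.81, with 8 of 10 at 0, and B cell markers to 0 and 0.06, with 7 of 9 at 0. The stem and progenitor markers summed to 0.65 and 0.44. The part of such cells in the levels of Csf2rb, Csf2rb2, Il2rg or Il6st was not tested.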

How the data were processed

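Per the labels, total RNA of 2 biological replicates of 1 group was sequenced, on mm10. GENCODE annotation M4 was used, per the headers of the deposited notes. For the aligner, the quantifier and the read length, the sources used here name nothing. As deposited, expected counts are the authors' estimated reads of a gene or transcript, without normalization. The deposited TPM sums to the same total in each library, and the deposited FPKM is scaled by length and library size. The share of each transcript is a deposited percent of its gene. Each library has its own deposited interval of TPM, whose level is not stated in the files.

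Between the libraries, chi-square per degree of freedom was 8.04 over 7244 genes, above sampling noise, so they were not treated as repeat deposits of 1 library. This does not measure how alike the cultures were. The labels do not say how the cultures were separated, so the SD may be partly technical. Genes were named from GENCODE M21 by identifier without version (42462 of 43346 matched, and 161 of 162 list genes); coordinates are M21 on mm10. Some genes of the lists are not reported here. Gm48860, which overlaps Il3ra on the other strand, was not analysed here. Whether counting used strand is likewise not stated there.

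Values are levels per library and mean ± SD. Log2 ratios used TPM + 0.1, which understates differences of low genes. Genes without a read entered ratios at 3 counts per library, and the single Flt3 count is given as a ratio with its counting interval. Transcript shares are given for genes with 10 or more counts in both libraries, and otherwise only as counts. Coding sequences were aligned with Biopython 1.88 (global). Scaling factors for 1 alternative came from edgeR 4.0.16 in R 4.3.3 on expected counts rounded to whole numbers, and other steps ran in Python 3.11.15 with scipy 1.17.1, numpy 2.4.6 and pandas 2.3.3, with plots from matplotlib 3.10.9. On simulated counts for 8827 well-counted genes, all 200 genes changed 4-fold came out 2-fold or more apart and none of the 8627 others did. The simulation held Poisson noise only, and its ratios were centred on their median, so this outcome was nearly fixed in advance. It checks the calculation and says nothing about genes at low counts, such as Csf3r, or about the wider spread of the real libraries.

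The members and lists were chosen with earlier results of these data known. The text names all 10 members, partner chains, JAK and STAT genes at a TPM above 1 in both libraries, and up to 4 of the highest and 2 of the lowest genes of each other list. Genes named outside this rule, such as partner chains and ligands at low counts, were picked with their values in view. The alternatives tried altered the threshold, unit, pseudocount and scaling and left out each replicate.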

Additional observations from a re-analysis of the deposited data

How the results depend on the processing

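No paired analysis was possible because there is 1 group. The count of members reaching a TPM of 1 in both libraries was 4 and stayed at 4 on FPKM, on posterior mean TPM and without either replicate. It was 5 at a threshold of 0.5 or with TPM rescaled to nuclear protein-coding genes alone, where Il3ra joined, and 2 at a threshold of 5. Rescaling raised every level above 0 by 4.37 to 4.41 times without changing the order. The count of members 2-fold apart between libraries, 1 (Csf3r), became 2 with a pseudocount of 0.01 (Flt3 joined), and 0 with a pseudocount of 1, on posterior mean TPM, on counts scaled by TMM and with a mean TPM of 1 or more required. Ratios on expected counts are not divided by length. On that scale Csf2rb over Il3ra was 141.5. With genes at or under 3 counts set to 3 counts in each library, the means of the 2 libraries' values were 133 for Il6st over Il6ra, 57.3 for Il2rg over Il7r and 0.000155 for Flt3 over Kit. These means are not bounds for each library. On posterior mean TPM, which is above 0 for genes without reads, Il6st over Il6ra was 259.5 and Il2rg over Il7r 434.5. Csf2rb over Csf2rb2, 2.04, was 2.11 on expected counts and 2.04 on posterior mean TPM and on FPKM. With 2 libraries, leaving 1 out always moves a mean by less than its SD, so it tells nothing about stability. The share of Il6st-203 was 86.1% of expected counts and 45.2% of posterior mean TPM. For these shares, and for the posterior mean ratios, the cause was not tested. Leaving out a replicate gave 44.5% to 85.7% of TPM for Il2rg-201, a move of over 1.5 times from 1 library to the other. Its share in replicates 1 and 2 was 63.5% and 92.2% of expected counts, and 41.0% and 79.0% of posterior mean TPM. Genes under 10 counts, Csf3r, Flt3, Csf1r and Il7r, cannot be ranked at this depth.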
